A study of Mus musculus with 6 samples.

Results

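The 10 genes described here are the transcription factor gene Nfe2l2, which encodes NRF2, and 9 genes known as its targets or as antioxidant genes: Nqo1, Hmox1, Gclc, Gclm, Srxn1, Txnrd1, Gsr, Slc7a11 and Osgin1. They were chosen by name, and with their difference between the groups known: Osgin1 and Gclc as lower, Slc7a11 as higher after the longer ischaemia. Their values are therefore given as a description, without a test. All 10 were among the 35275 genes of the count table, and all 10 had enough reads to enter the fit across 14883 genes. Slc7a11 did so only through its reads in the severe group, so it could only appear here as a gene that differs.

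RNA was sequenced from 6 kidneys of wild-type (WT) C57Bl/6 mice 28 days after ischaemia-reperfusion injury, an interruption of the blood supply followed by its return. Ischaemia lasted 20 min in the mild group (libraries 7, 8 and 9) and 35 min in the severe group (libraries 13, 14 and 15). All kidneys were injured, and uninjured kidneys were not analysed here, so each value compares the longer with the shorter ischaemia. No source used here gives age or sex, or says that each kidney is from a mouse of its own. The p-values below therefore reflect only how much these samples vary. The study asks how the longer ischaemia bears on the transition from acute injury to chronic kidney disease.

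NRF2 is held in the cytoplasm by KEAP1, which presents it to a CUL3 ubiquitin ligase for degradation. Oxidants and electrophiles modify KEAP1, NRF2 then accumulates, and with a small MAF protein it binds antioxidant response elements near its target genes. The targets make glutathione, recycle thioredoxin and glutathione, reduce quinones and degrade haem. In the kidney the pathway is known for protecting tubule cells against ischaemic injury.

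Much of this control acts on the NRF2 protein, which RNA counts do not measure. The promoters, by contrast, can be read. A 300-base RefSeq promoter window (build GRCm38.p6, 250 bases before the start site to 50 after it) was found for 7 of the 10 genes. Hmox1, Gclc and Gsr had none. The core of the antioxidant response element, TGACNNNGC, was searched on both strands. It occurred in 4 of these 7 genes and in 14% of 27025 genes with a window. The strict form TGACTCAGC occurred in 0 of the 7 and in 0.503% of genes. The core sites are shown because the antioxidant response element is the sequence that NRF2 binds near its targets. Capitals mark the site, 10 bases are shown on each side, and each sequence runs 5′ to 3′ on the strand of the gene.
Gclm (chr3:122245413-122245441, plus strand): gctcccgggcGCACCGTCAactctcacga
Txnrd1 (chr10:82859104-82859132, plus strand): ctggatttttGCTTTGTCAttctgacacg
Srxn1 (chr2:152105542-152105570, plus strand): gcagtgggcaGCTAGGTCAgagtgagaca
Nfe2l2 (chr2:75704885-75704913, minus strand): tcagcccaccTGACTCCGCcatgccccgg
The sites in Gclm, Txnrd1 and Srxn1 are on the strand opposite to the gene. Counted from the start site, they begin at -134 in Gclm, -92 in Txnrd1, -240 in Nfe2l2 and 28 in Srxn1, where the site lies just inside the transcript. The windows of Nqo1, Slc7a11 and Osgin1 held no core site, which says only that these letters are not in these windows. The search did not cover the form with G in place of the first C, TGAGTCAGC. Those letters are in the window of Srxn1 and, on the strand opposite to the gene, in that of Osgin1. Their share over all genes was not counted. A match is a description of the sequence and not a measured binding site.

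Slc7a11 is also known as a target of ATF4, the transcription factor of the amino acid stress response. Its window held a pair of amino acid response elements (TGATGNAA, searched on both strands after the expression values had been seen). The element occurred in 1 of the 7 genes and in 4.51% of all genes with a window. The 47 bases that hold both elements are shown because Slc7a11 was the gene of the 10 with the largest difference. Capitals mark the elements, the first on the strand of the gene and the second on the opposite strand, starting at -66 and -47.
Slc7a11 (chr3:50443643-50443689, minus strand): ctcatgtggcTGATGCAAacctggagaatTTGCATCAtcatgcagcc

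The libraries held between 15240491 and 17730967 gene counts. Levels are given as CPM, the read count corrected for sequencing depth with edgeR's TMM factors, and the spread as the SD over 3 libraries. The severe libraries varied more than the mild ones, with the larger SD of log2 CPM in 73.2% of all genes tested. Among the 10 genes the SD of CPM was larger in the severe group for 9, all but Hmox1. This SD is not on a log2 scale, so the 9 cannot be set against that share. The SD relative to the mean (coefficient of variation) was larger in the severe group for 8, all but Hmox1 and Slc7a11. Tubule markers were abundant in all 6 libraries. The summed level of 15 proximal tubule markers lay between 43315 and 45579 CPM in mild libraries. It was 37380, 18836 and 33722 CPM in severe libraries 13, 14 and 15.

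To set the genes against each other, their levels were divided by gene length. In mild kidneys Gclc stood highest at 117 ± 5.32 CPM per kilobase, above Gclm at 81.8 ± 3.73 and Gsr at 77.7 ± 4.83, whose ranges overlapped. Txnrd1 followed at 67.9 ± 3.34, Nqo1 at 43.7 ± 1.42, Nfe2l2 at 39.5 ± 1.12 and Hmox1 at 36.9 ± 4.57. The ranges of Nfe2l2 and Hmox1 overlapped. Below them stood Osgin1 at 32.8 ± 0.286 and Srxn1 at 27.7 ± 1.65. Slc7a11 was far below the others, at 0.0139 ± 0.0121. In severe kidneys Osgin1, at 18.9 ± 2.74, stood below Srxn1, at 27.2 ± 2.39, and their ranges did not overlap. The ranges of Gclc, Gsr, Gclm and Txnrd1, each with the next in order, all overlapped there.

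**Figure D1:**
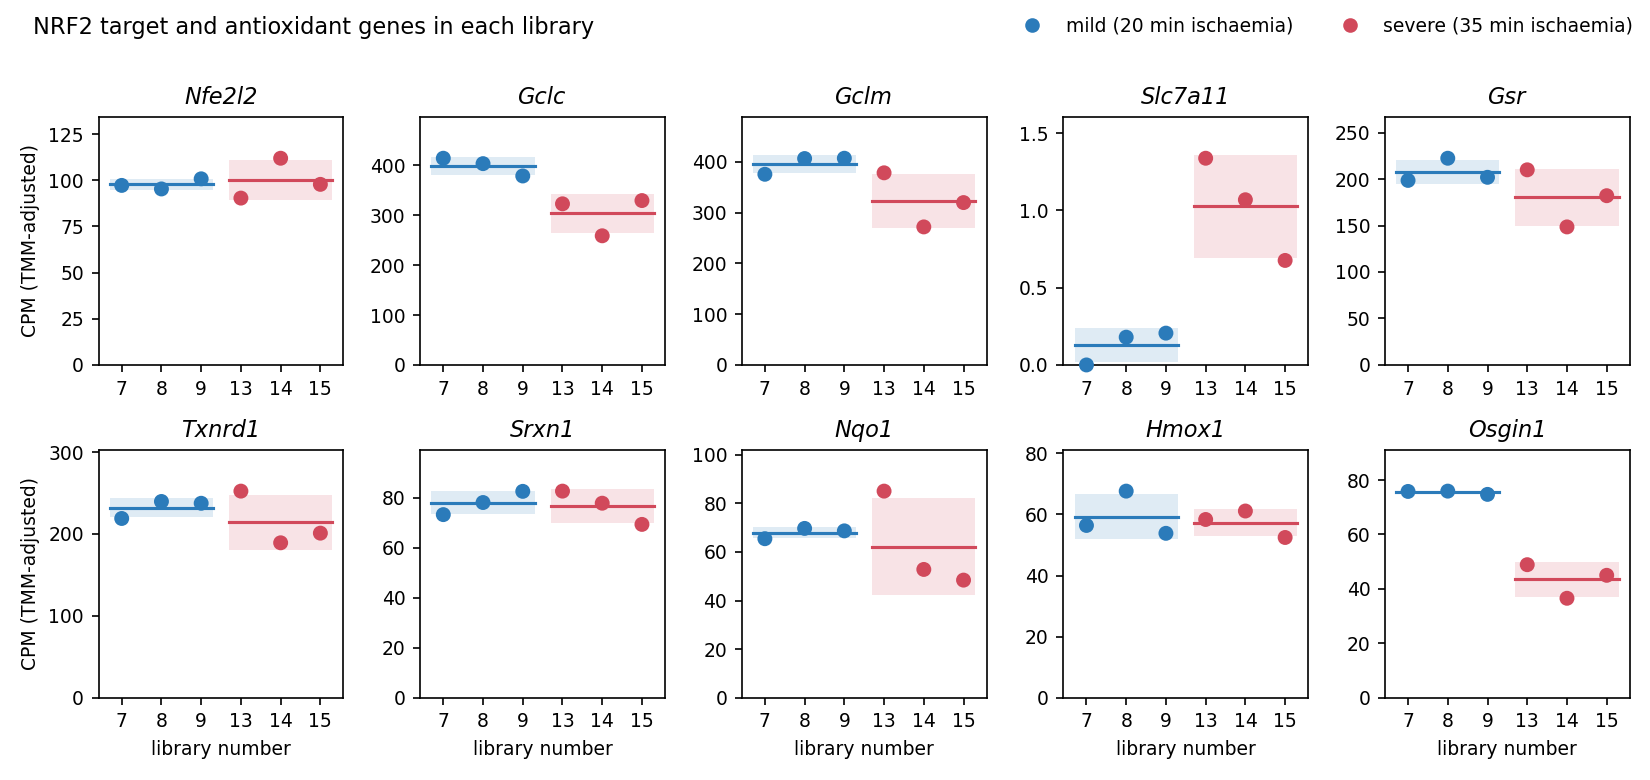
CPM of each of the 10 genes (vertical axes from 0, each with its own scale) in the 6 libraries, numbered on the horizontal axis. Points are libraries, lines are group means and shaded bands are ± 1 SD (n = 3). The severe points of Osgin1 and Gclc all lie below the mild points, those of Slc7a11 all lie above them, and the groups overlap for the other 7 genes.

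Of the 10 genes, 2 had all severe libraries below all mild libraries and 1 had them all above. Over all tested genes, 16.1% were lower and 17.9% were higher in that sense. The choice of these 3 genes fixed the result, so nothing is read from it. The median log2 fold change over the 10 genes was -0.12, against 0.0002 over all tested genes. By adjusted p under 0.05 in edgeR's quasi-likelihood test, 1 gene of the whole table was higher (0.00672% of those tested) and 1 was lower (0.00672%), and neither is among the 10.

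The regulator itself had overlapping RNA levels. Nfe2l2 stood at 97.3, 95.3 and 101 CPM in mild libraries 7, 8 and 9 and at 90.4, 112 and 97.8 CPM in severe libraries 13, 14 and 15. The groups overlapped, with library 14 highest and library 13 lowest of all 6. Nfe2l2 had a log2 fold change of 0.033 ± 0.095 (SE). It was -0.056 without severe library 14 and 0.21 when library totals replaced TMM scaling. Library totals raised the median log2 fold change of all tested genes to 0.17. Values with library totals, here and below, are to be read against that median and not against 0.

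Glutathione synthesis begins with glutamate-cysteine ligase, made of the catalytic subunit Gclc and the modifier subunit Gclm. Gclc stood at 414, 403 and 379 CPM in mild libraries 7, 8 and 9 and at 323, 259 and 329 CPM in severe libraries 13, 14 and 15. Every severe library lay below every mild library, with library 14 lowest. This gave a log2 fold change of -0.39 ± 0.13, a ratio of mean CPM of 0.762, and -0.29 without library 14. Gclc (ENSMUSG00000032350) spans 77754535 to 77794485 on the plus strand of chromosome 9 (mm10). Gclm stood at 375, 406 and 407 CPM in the mild libraries and at 378, 272 and 320 CPM in the severe ones. Severe library 13 lay inside the mild range of Gclm, and the other severe libraries lay below it. For Gclm the log2 fold change was -0.29 ± 0.14, and it was -0.18 without library 14 and -0.41 without library 13. The ratio of Gclc to Gclm within a library was 1.01 ± 0.0876 in mild and 0.946 ± 0.0887 in severe kidneys, with overlapping groups.

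Slc7a11 encodes xCT, the subunit of the cystine-glutamate exchanger that brings in cystine for glutathione synthesis. It had 0, 3 and 3 reads in mild libraries 7, 8 and 9 and 23, 19 and 11 reads in severe libraries 13, 14 and 15. In CPM these were 0, 0.180 and 0.206 against 1.34, 1.07 and 0.676. A count of 0 allows up to 0.207 CPM in library 7, a limit that covers counting error only. Every severe library lay above every mild library, but the level stayed low in all 6. Over the pooled reads, 53 against 6, the ratio scaled for library size was 7.89, given as a description because the gene was chosen for this difference. The fitted log2 fold change of 2.91 ± 0.64 rests on these few reads, and it lay between 2.38 and 3.34 with 1 library left out. The deposited gene spans 50364936 to 50443613 on the minus strand of chromosome 3 (mm10).

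The partner of Slc7a11 in the exchanger, the heavy chain gene Slc3a2, is much more abundant, and its log2 fold change had the opposite sign. Slc3a2 stood at 254, 306 and 291 CPM in the mild libraries and at 252, 223 and 241 CPM in the severe ones. Every severe library lay below every mild library, by little in the case of library 13. Its log2 fold change was -0.25 ± 0.11, which did not pass (edgeR, adjusted p = 0.226). Slc3a2 also serves other amino acid exchangers.

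Gsr, the glutathione reductase that returns oxidised glutathione to its reduced form, stood at 199, 222 and 202 CPM in mild libraries 7, 8 and 9. In severe libraries 13, 14 and 15 its level was 209.9, 148 and 182 CPM. Severe library 13 lay inside the mild range and the other 2 severe libraries lay below it. The log2 fold change was -0.20 ± 0.14, -0.083 without library 14 and -0.32 without library 13.

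The thioredoxin arm is represented by Txnrd1, the cytosolic thioredoxin reductase, and Srxn1, sulfiredoxin, which repairs overoxidised peroxiredoxins. Txnrd1 stood at 219, 239.7 and 237 CPM in the mild and at 252, 189 and 201 CPM in the severe libraries. Library 13 was the highest of all 6 and libraries 14 and 15 the lowest. Its log2 fold change of -0.12 ± 0.13 was 0.042 with library totals, -0.24 without severe library 13, -0.034 without severe library 14 and -0.073 without severe library 15. Srxn1 stood at 73.2, 78.0 and 82.5 CPM in the mild and at 82.6, 77.8 and 69.3 CPM in the severe libraries. The groups of Srxn1 overlapped almost completely, with a log2 fold change of -0.025 ± 0.090, which turned to 0.14 with library totals, 0.0066 with upper-quartile scaling, 0.024 without mild library 9 and 0.041 without severe library 15.

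Nqo1 encodes a quinone reductase and is a widely used reporter of NRF2 activity. It stood at 65.4, 69.6 and 68.6 CPM in mild libraries 7, 8 and 9 and at 85.0, 52.8 and 48.4 CPM in severe libraries 13, 14 and 15. The severe libraries lay on both sides of the narrow mild range, library 13 above it and libraries 14 and 15 below it. The log2 fold change of -0.13 ± 0.20 was -0.42 without library 13, 0.0196 without library 15 and 0.020 with library totals. The coefficient of variation of Nqo1 was 3.26% in mild and 32.2% in severe kidneys.

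Hmox1 encodes haem oxygenase, which breaks haem down to biliverdin, iron and carbon monoxide, and is also controlled by the repressor BACH1. It stood at 56.4, 67.6 and 53.8 CPM in the mild and at 58.3, 61.1 and 52.4 CPM in the severe libraries. The groups overlapped, and the highest value belonged to mild library 8. Its log2 fold change of -0.049 ± 0.107 turned to 0.12 with library totals, 0.064 without mild library 8 and 0.0096 without severe library 15.

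Osgin1, the oxidative stress induced growth inhibitor, had the lowest log2 fold change of the 10. It stood at 75.8, 75.9 and 74.7 CPM in mild libraries 7, 8 and 9 and at 48.9, 36.6 and 45.0 CPM in severe libraries 13, 14 and 15. The mild libraries differed from each other by little (coefficient of variation 0.872%), and every severe library lay well below them. The log2 fold change was -0.80 ± 0.11, a ratio of mean CPM of 0.576. It lay between -0.88 and -0.68 with 1 library left out. Osgin1 (ENSMUSG00000074063) spans 119434124 to 119446256 on the plus strand of chromosome 8 (mm10). Its RefSeq start site, 119437147, lies inside that span.

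**Figure D2:**
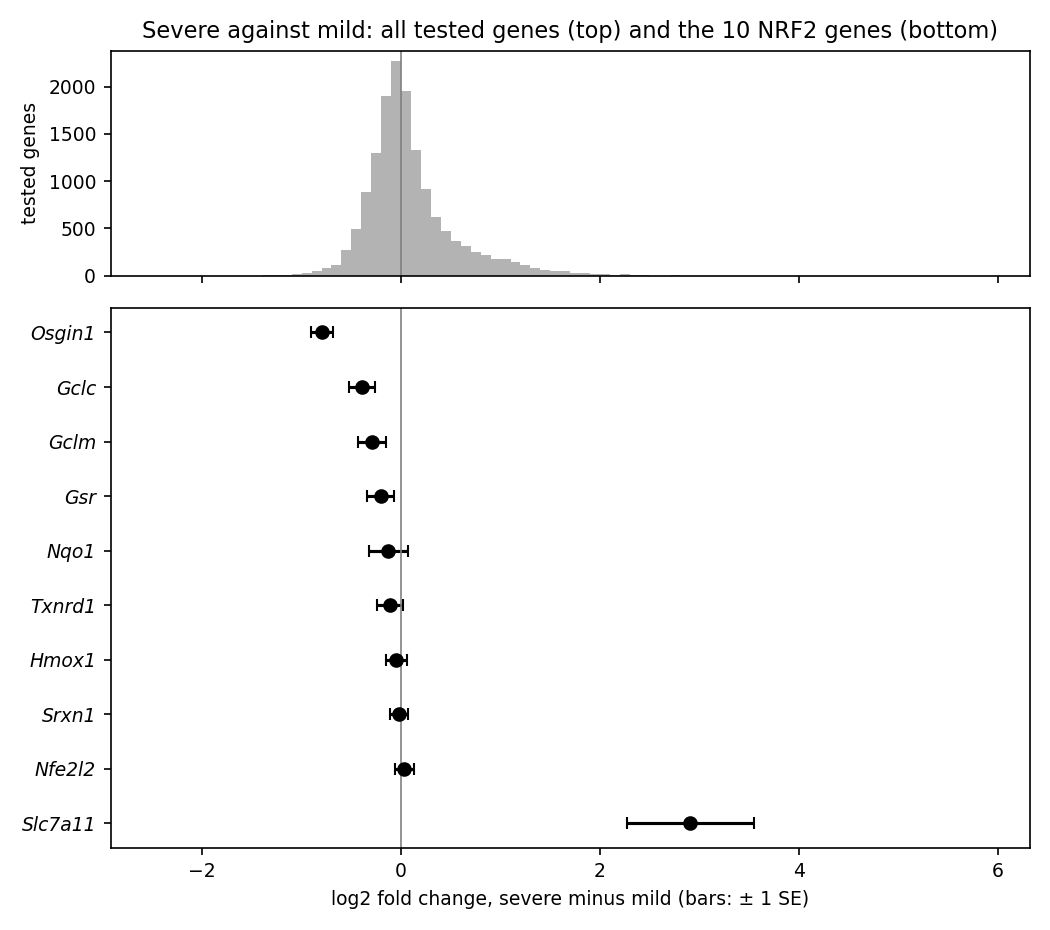
Log2 fold change, severe minus mild, of all 14883 tested genes (top, number of genes per bin of the horizontal axis) and of the 10 genes (bottom, points with bars of ± 1 SE from the edgeR fit). Osgin1 stands at -0.80 and Gclc at -0.39, Slc7a11 stands at 2.91, and the other 7 lie between -0.29 and 0.033.

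The severe libraries differed from each other in how these genes ranked. Within the severe group, 7 of the 10 genes were highest in library 13, 2 in library 14 and 1 in library 15. The lowest severe value was in library 14 for 5 genes, in library 15 for 4 and in library 13 for 1. The same counts were not made over all tested genes, so nothing particular to these 10 genes is read from them. In every severe library, 13 of 15 proximal tubule markers were below the mild range, beside 16.1% of all tested genes. The most abundant markers, Kap, Slc34a1 and Acsm2, had log2 fold changes of -0.60, -0.53 and -0.51. Their list's mean log2 CPM relative to the mild mean was -0.23, -1.11 and -0.40 in libraries 13, 14 and 15. Beside these stood Osgin1 at -0.63, -1.04 and -0.75 and Gclc at -0.30, -0.62 and -0.27. Osgin1, Gclc and the marker list were all lowest in library 14. Osgin1 was further below the mild mean than the marker list in libraries 13 and 15. Gclc was nearer to the mild mean than the list in libraries 14 and 15. In whole-kidney RNA, fewer cells of a type and less RNA per cell cannot be told apart, and the part of the tubule markers in the lower values of Osgin1 and Gclc was not tested.

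Other cell types moved with the groups as well. Of 16 macrophage and monocyte markers, 13 were higher in every severe library, beside 17.9% of all tested genes. The most abundant markers had log2 fold changes of 1.73 for Lyz2, 0.45 for Csf1r and 1.07 for C1qb. The summed level of the 16 markers lay between 437 and 513 CPM in mild libraries. It was 752, 1416 and 922 CPM in severe libraries 13, 14 and 15. Injured tubule markers summed to between 2321 and 3043 CPM in mild libraries and to 3163, 10766 and 5831 CPM in the severe ones. Fibroblast markers summed to between 789 and 974 CPM in mild libraries and to 1645, 5243 and 2744 CPM in severe ones. All of these lists were highest in library 14 and lowest of the severe libraries in library 13. Slc7a11 had its highest value in library 13, at 23 reads against 19 in library 14. Reads this few do not set the order of these libraries. The part of these cells in the higher reads of Slc7a11 was not tested.

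Red blood cell markers summed to 102 CPM in library 13, against 29.4 and 42.4 CPM in libraries 14 and 15 and between 50.9 and 67.2 CPM in mild libraries. Slc4a1, which collecting duct cells also express, made up 50.6 CPM of the sum in library 13, and haemoglobin Hbb-bs was 24.8 CPM in library 13 against at most 5.15 CPM in any other library. Library 13 is also where Nqo1, Txnrd1, Srxn1 and Slc7a11 had their highest values. For Srxn1 the margin was small (82.58 against 82.49 CPM in mild library 9). For Slc7a11 it rested on 23 reads against 19 in library 14. The part of blood in the values of these genes was not tested. Neutrophil markers summed to between 2.13 and 4.19 CPM in mild and between 6.16 and 12.1 CPM in severe libraries, with Mpo and Camp at 0 reads in all 6. T and B cell markers summed to between 5.45 and 15.1 CPM, with overlapping groups. The endothelial, podocyte and distal lists had medians of 0.053, 0.014 and -0.40 in log2 fold change. The share of mitochondrial reads was 10.4% to 10.7% in mild libraries and 10.7%, 7.48% and 8.47% in severe libraries 13, 14 and 15.

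**Figure D3:**
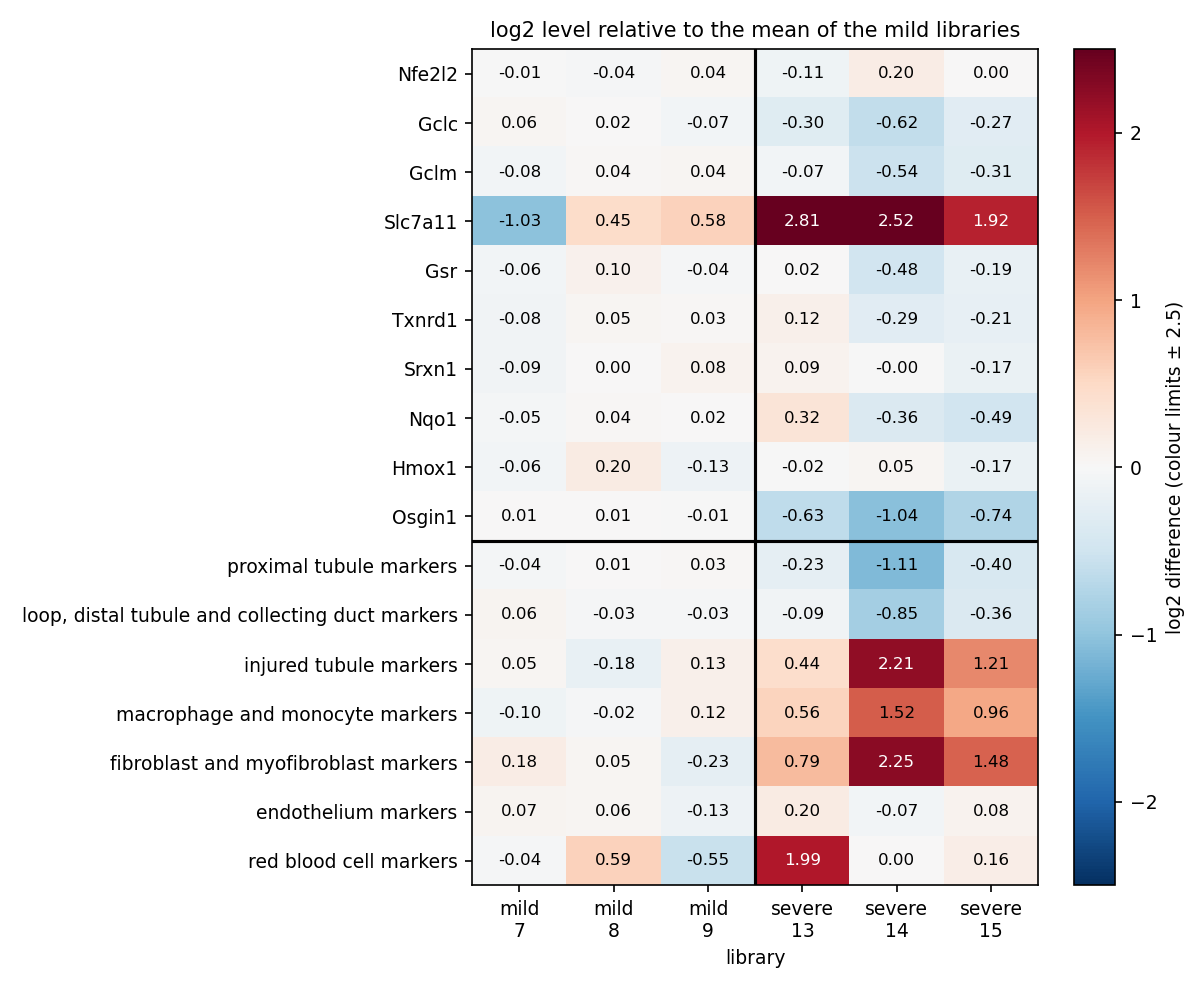
Log2 level relative to the mean of the mild libraries for the 10 genes (upper rows, log2 of CPM plus 0.1) and for the mean of 7 marker lists (lower rows, log2 of CPM plus 0.5), with libraries in columns and the value printed in each cell. Proximal tubule markers are at -1.11 in severe library 14, where Osgin1 is at -1.04, and Nqo1 is at 0.32 in severe library 13 against -0.36 and -0.49 in the other 2.

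The rest of the pathway was taken from 7 lists that hold 126 further genes, 120 of them tested. In edgeR's quasi-likelihood test 0 of 120 passed an adjusted p of 0.05 (lowest adjusted p = 0.0867). At an unadjusted p under 0.05 there were 22 higher and 9 lower, 18.3% and 7.50% of the 120, against 15.8% and 7.89% of all tested genes. Of the 120, 23 (19.2%) were higher and 27 (22.5%) lower in every severe library, beside 17.9% and 16.1% of all tested genes. The median log2 fold change was -0.13. With DESeq2 10 of them passed, all higher, and with quality-weighted limma-voom 25 were higher and 43 lower. Without severe library 13, 19 were higher and 21 lower (edgeR), and without severe library 14, 1 was higher. The values below are from all 6 libraries, and none of these genes passed there.

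Among the 16 regulators and partners of NRF2, the median log2 fold change was -0.067. In every severe library 3 (18.8%) were higher and 2 (12.5%) lower, near the 17.9% and 16.1% of all tested genes. Keap1, the inhibitor, stood at 38.8 ± 0.732 CPM after mild and 36.3 ± 3.19 CPM after severe ischaemia, with overlapping groups. Its ligase subunits Cul3 and Rbx1 had log2 fold changes of -0.16 and -0.13. The autophagy receptor Sqstm1, which can sequester KEAP1, stood at -0.085, and the repressor Bach1 at 0.091. These 5 overlapped between the groups. The related factor Nfe2l3 stood at 0.916 ± 0.211 in mild and 2.10 ± 0.480 CPM in severe kidneys, with a log2 fold change of 1.19 ± 0.30 (adjusted p = 0.1001). Among the small MAF genes, whose products pair with NRF2, Maff and Mafg differed in sign. Maff stood at 4.41, 4.91 and 6.04 CPM in the mild and at 6.16, 15.4 and 8.85 CPM in the severe libraries (0.99 ± 0.33, adjusted p = 0.146). Mafg, the more abundant, had a log2 fold change of -0.21 ± 0.11 and Mafk of 0.14 ± 0.10. Park7 stood at -0.32 and Palb2 at 0.45, both outside the mild range in every severe library. Without severe library 14, Maff stood at 0.55, Mafg at -0.099 and Park7 at -0.20. Bach2 stood at -0.25, Nfe2l1 at -0.050, Btrc at -0.10, Gsk3b at 0.023 and Dpp3 at 0.0012, all overlapping.

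Of 27 tested glutathione enzymes, 4 (14.8%) were higher and 5 (18.5%) lower in every severe library, near the 17.9% and 16.1% of all tested genes (median -0.20). The endoplasmic reticulum peroxidases Gpx7 and Gpx8 were among the higher ones. Gpx7 went from 2.36 ± 0.225 to 6.06 ± 2.70 CPM (log2 fold change 1.36 ± 0.34, adjusted p = 0.1001). Gpx8 stood at 0.62 ± 0.19 and the transferase Gstm6 at 0.72 ± 0.22, while Gsta4 stood at -0.24 ± 0.09. Reads of glutathione transferases with near-identical copies, Gstm6 among them, may be shared between copies.

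In the thioredoxin, peroxiredoxin and superoxide list, 9 of 20 genes lay below the mild range in every severe library and 2 above it, beside 16.1% and 17.9% of all tested genes (median -0.24). The methionine sulfoxide reductases Msra and Msrb1 stood at -0.46 ± 0.16 and -0.51 ± 0.19. The superoxide dismutase Sod1 went from 468 ± 9.49 to 346 ± 71.6 CPM, and the mitochondrial peroxiredoxin Prdx3 stood at -0.39 ± 0.15. Each of these 4 was lowest in library 14, and without it Msrb1 stood at -0.31, Sod1 at -0.28 and Prdx3 at -0.25. Their proximity to the tubule marker values of the same libraries was not tested.

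Of 9 genes that supply NADPH, the reductant used by Gsr, Txnrd1 and Nqo1, 2 (22.2%) were lower in every severe library, beside 16.1% of all tested genes (median -0.15). Mthfd1 stood at -0.44 ± 0.18, Me1 at -0.43 ± 0.23 and Aldh1l1 at -0.41 ± 0.23. Without severe library 14 they stood at -0.26, -0.20 and -0.19, and without severe library 13 Aldh1l1 stood at -0.65. G6pdx, which opens the pentose phosphate pathway, stood at 34.4, 33.1 and 35.3 CPM in the mild and at 37.0, 38.2 and 35.0 CPM in the severe libraries, with overlapping groups.

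Among quinone, carbonyl and conjugating enzymes and efflux pumps, 8 of 23 genes (34.8%) were higher and 4 (17.4%) lower in every severe library, beside 17.9% and 16.1% of all tested genes (median -0.094). Cbr3, a carbonyl reductase, stood at 1.52, 1.98 and 1.92 CPM in the mild and at 3.55, 5.46 and 3.38 CPM in the severe libraries. Its log2 fold change was 1.19 ± 0.26 (adjusted p = 0.0867). The aldehyde oxidase Aox1 stood at 1.44 ± 0.34 (adjusted p = 0.0897), the efflux pump Abcc3 at 1.08 ± 0.29 and Abcc5 at 0.34 ± 0.09. Cbr3, Aox1, Abcc3 and Abcc5 were higher in every severe library, which largely follows from their small p, for which they were named. The groups of Nqo1 overlapped.

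Of 9 tested genes of haem and iron handling, 1 (11.1%) was lower in every severe library, beside 16.1% of all tested genes (median -0.21). This was the haem transporter Slc48a1, at -0.21 ± 0.12 and at -0.11 without severe library 14. The biliverdin reductase Blvra, which acts after haem oxygenase, stood at -0.26 ± 0.11 and the constitutive haem oxygenase Hmox2 at -0.17 ± 0.09. The iron exporter Slc40a1 stood at 0.32 ± 0.17, with library 13 at 57.4 CPM, below every mild library, and libraries 14 and 15 at 94.2 and 86.4 CPM, above every mild library. Slc40a1 stood at 0.52 without library 13 and at 0.18 without library 14.

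The amino acid stress response of ATF4, which also acts on Slc7a11, had 6 of 18 genes (33.3%) higher and 4 (22.2%) lower in every severe library, beside 17.9% and 16.1% of all tested genes (median 0.11). Ddit4, an inhibitor of mTORC1 signalling, stood at 28.0, 26.6 and 26.5 CPM in the mild and at 43.4, 58.6 and 44.2 CPM in the severe libraries. Its log2 fold change of 0.85 ± 0.12 missed the threshold (adjusted p = 0.0867). It passed without library 13 (adjusted p = 0.00413), without library 14 (0.00173), with DESeq2 (2.35e-05), with limma-voom (0.000450) and with no filter on low counts (0.0159), and the highest adjusted p over the alternatives was 0.319, without mild library 8. The pseudokinase Trib3 stood at 1.14 ± 0.29, the asparagine synthetase Asns at 0.80 ± 0.21 and the glutamine transporter Slc1a5 at 0.26 ± 0.08. The element TGATGNAA shown for Slc7a11 occurred in 6 of the 15 genes of this list with a window, beside 4.51% of all genes with one. These 6 were Asns and Trib3, given above, Atf3 at 1.13, Chac1 at 0.14, Slc1a4 at -0.23 and Vldlr at -0.19. Ddit4 was not among them. Atf4 itself stood at -0.038, and the part of ATF4 in the reads of Slc7a11 was not tested.

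**Figure D4:**
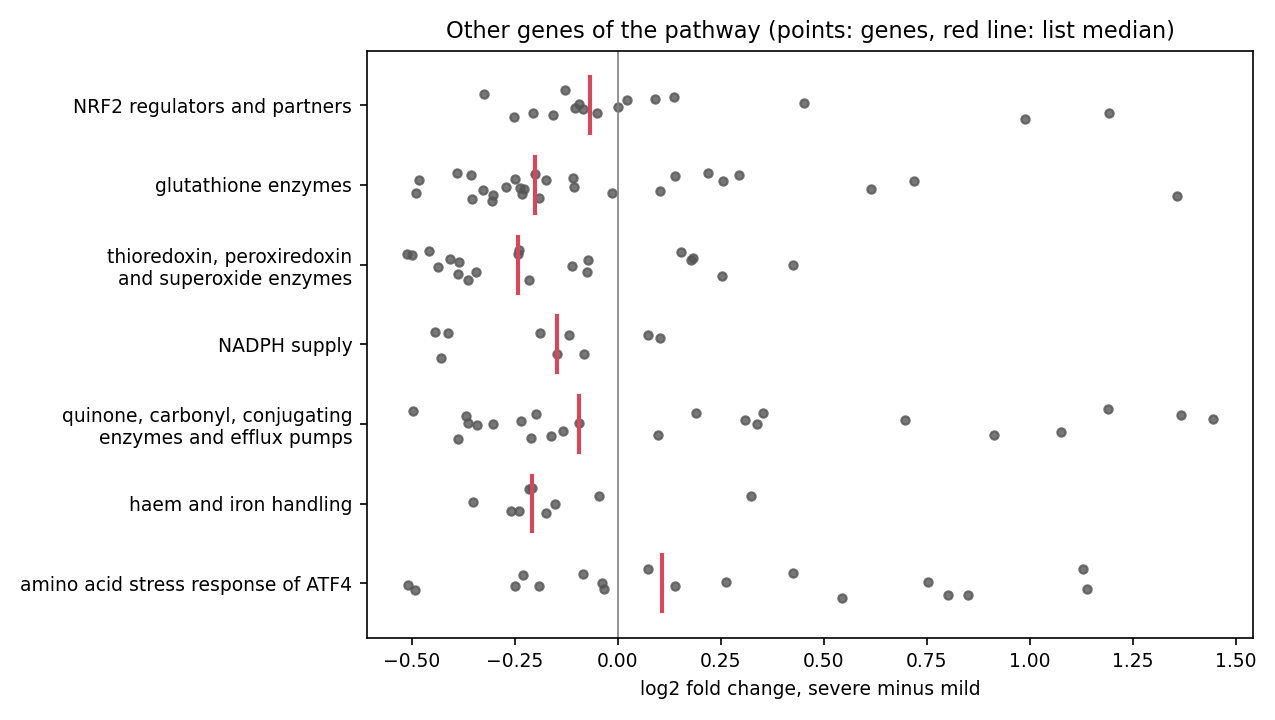
Log2 fold change, severe minus mild, of the tested genes of 7 lists of the wider pathway (points, jittered vertically) with the median of each list (red line). Medians run from -0.24 in the thioredoxin, peroxiredoxin and superoxide list to 0.11 in the list of the ATF4 response, and each list has genes on both sides of 0.

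The genes whose profile over the 6 libraries lay nearest to Osgin1, Gclc and Slc7a11 were found by the root mean square difference of log2 CPM relative to the mild mean. Among those near to Osgin1 were Smlr1, at a difference of 0.10, and Adh7, at 0.11, each with all severe libraries below all mild ones. Nearest to Gclc were Pop1 at 0.025, Pitpnm3 at 0.036 and Celsr2 at 0.038, which were likewise below the mild range in every severe library. Nearest to Slc7a11 were Mmp12, the macrophage elastase, at 0.51, Mmp19 at 0.52 and Cdc25c at 0.52. These last differences are large, so no gene followed the low reads of Slc7a11 closely. The level of Mmp12 was 23.1, 24.0 and 12.3 CPM in libraries 13, 14 and 15. Like Slc7a11 it was lowest of these in library 15, but it was highest in library 14 and Slc7a11 in library 13. All genes of this paragraph were picked for likeness over these same 6 libraries. What they share with Osgin1, Gclc or Slc7a11 there follows from the choice and is not a result.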

How the data were processed

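The authors deposited a table of raw counts, with 1 row per Ensembl gene. Per the submitters' processing notes, Bowtie2 2.2.3, TopHat2 2.0.12, HTSeq 0.6.1 and mm10 were used. Their roles, the strandedness of counting and the annotation version are not stated in any source used here, so reads of overlapping genes cannot be told apart (the antisense gene Gm17494 over Gclm has 54 reads against 34680). Gene lengths are the other deposited values used. Column names gave the group, and their numbers matched no sample title. Counts were filtered with filterByExpr, scaled by TMM, and fitted by group with edgeR 4.0.16 (quasi-likelihood F test), in R 4.3.3 with robust dispersion, p-values adjusted by Benjamini-Hochberg across the tested genes (threshold 0.05). Each standard error is the size of the log2 fold change over the square root of F. DESeq2 1.42.0 and limma 3.58.1 were alternatives. The pipeline was tested on simulated data with the same spread in both groups, whereas the severe libraries here varied more than the mild ones. That test therefore does not show how the fit handles unequal spread. The chi-square per degree of freedom between replicates was 3.83 to 77.1, so no library was counted as a repeat.

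The 10 genes and all lists were chosen with earlier results of these data known. Named are the 10 genes, the 16 regulators, up to 4 genes with the smallest p per other list, the 3 most abundant genes per marker list (given here as list sums, with 2 lists by gene), Slc3a2, and the 3 genes nearest in profile to Osgin1, Gclc and Slc7a11, of which 1 is not reported here. All 246 listed symbols matched a gene. Promoter sequences are those of RefSeq.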

Additional observations from a re-analysis of the deposited data

How the results depend on the processing

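Each value was recomputed under 14 alternatives. Of the 139 values of the 10 genes, 6 moved by more than 1 SD. Slc7a11 gives no value with at least 1 CPM in 3 libraries. The log2 fold changes of Osgin1, Gclc, Gclm, Gsr and Slc7a11 kept their sign under each alternative run, and the other 5 changed sign under 1 to 4 of them. Library totals as the scaling raised the median of all genes to 0.17, and values there should be read against it. With it Osgin1 stood at -0.64 and Gclc at -0.23. The number of genes past the threshold, 2 with all libraries, was 1 with library totals, 146 without a filter on low counts, 1171 with DESeq2 and 5080 with quality-weighted limma-voom. It lay between 0 and 3269 with 1 library left out (3269 without severe library 13, 501 without severe library 14, 1 without severe library 15, 0 without any 1 mild library, where 2137 to 2345 genes had an unadjusted p under 0.05 in edgeR). For the other 120 pathway genes the number, 0 with all libraries, was 1 without a filter, 10 with DESeq2, 68 with limma-voom, and between 0 and 40 with 1 library left out. The causes were not tested. Promoters with the strict antioxidant response element numbered 0, against 4 with the core. The strict form is contained in the core, so its number could only be the same or lower. Among the 41 named pathway genes 61 values of 574 passed the threshold where the main ones did not, and 17 changed sign. With library totals Keap1 stood at 0.071, Cul3 at 0.0065, Rbx1 at 0.035, Nfe2l1 at 0.12, Sqstm1 at 0.078 and Btrc at 0.056. With limma-voom Keap1 stood at 0.011 and Gsk3b at -0.16. Without severe library 14 Bach1 stood at -0.033 and Gsk3b at -0.028, and without severe library 13 Gsk3b stood at -0.0197. Dpp3 stood at -0.0042 with RLE scaling, -0.0051 without a filter, -0.0043 with DESeq2, -0.021 without mild library 7, -0.030 without severe library 13 and -0.055 without severe library 15. With 1 library left out Bach1 lay between -0.033 and 0.18, Gsk3b between -0.028 and 0.12 and Dpp3 between -0.055 and 0.090. No paired analysis was possible because the groups share no replicate numbers. Depth limits Slc7a11 most, with at most 3 reads in a mild library.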
